A study of Mus musculus with 16 samples.

Results

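The Slc25 family of mitochondrial carriers was described in tibialis anterior muscle and cortical bone of aged mice given BAY or vehicle (VEH). Members were taken by name: every protein-coding gene whose symbol starts with Slc25a. There were 47 such genes, of which 42 stood in both deposited tables and 5 in the cortical bone table only. All told, 21011 genes were listed for skeletal muscle and 38933 for cortical bone. BAY (BAY2416964) is an inhibitor of the aryl hydrocarbon receptor (AhR), a ligand-activated transcription factor. Female C57BL/6 mice aged 18 months received it by oral gavage for 8 weeks, 5 days a week, at a dose of 30 mg/kg, and control mice received the vehicle alone. Bulk RNA-seq covered 4 BAY and 4 VEH mice per tissue, with 1 library per mouse. Bone shafts had been digested with collagenase after marrow stromal cells were taken, and their RNA was isolated with TRIzol, whereas muscle RNA came from a Maxwell kit, so tissue and extraction cannot be told apart.

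Slc25 carriers lie mostly in the inner mitochondrial membrane and move nucleotides, phosphate, amino acids, carboxylates, cofactors and metals between the cytosol and the matrix. They are encoded in the nucleus and are brought in by the import machinery of both membranes. In skeletal muscle, the adenine nucleotide translocase encoded by Slc25a4 exports the ATP that contraction uses and is among the most abundant proteins of the mitochondrion.

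Slc25a4, the member with the highest mean CPM in both tissues, has a close paralog in Slc25a5, so the bases that tell their reads apart are shown first. Slc25a4 lies on the minus strand of chr8:46656538-46664325 and Slc25a5 on the plus strand of chrX:36059223-36062462 in GRCm39. Their coding sequences, each 894 bases without the stop codon, were identical at 77.4% of positions, and the longest run they shared was 20 bases. The 100 bases at the start of the first coding exon, with the 25 differing positions in capitals, read as follows for chr8:46663860-46663959 (minus strand) and chrX:36059384-36059483 (plus strand).
Slc25a4: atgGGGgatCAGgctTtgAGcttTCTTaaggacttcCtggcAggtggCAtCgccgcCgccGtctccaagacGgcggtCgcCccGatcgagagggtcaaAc
Slc25a5: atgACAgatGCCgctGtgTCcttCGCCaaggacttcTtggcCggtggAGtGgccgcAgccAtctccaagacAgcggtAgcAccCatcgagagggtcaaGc

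Levels are given as CPM, the reads of a gene scaled to the total of its library, after the log2 and the offset of the deposited values were undone, and comparisons between genes are given as CPM per kb of exon. Reads counted on genes ranged from 6131933 to 9262411 per library in muscle and from 930306 to 6951954 in bone. A count of 3 reads, the smallest level the depth could show, corresponded to 0.324 to 0.489 CPM in muscle and to 0.432 to 3.22 CPM in bone, and this covers counting error only. All 12 muscle-fibre markers were present in muscle and summed to between 248923 and 365638 CPM. Cortical bone libraries differed widely: the 14 osteoblast and osteocyte markers summed to between 1596 and 31663 CPM, and the muscle-fibre markers to between 368 and 89008 CPM. Olfactory receptor genes, known mainly from the nose although some are used elsewhere, served as a background level. They were at 0.132 to 7.52 CPM per kb in VEH and at 2.64 to 9.06 CPM per kb in BAY bone libraries (1355 genes). In muscle they were at 0.139 to 0.165 CPM per kb in VEH and at 0.142 to 0.194 CPM per kb in BAY, but over only the 43 such genes in that shorter table, so counts over background are not comparable between the tissues.

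In skeletal muscle the family summed to between 1926 and 2467 CPM, which was 2124 ± 247 CPM in VEH and 2115 ± 75.8 CPM in BAY (SD, n = 4 each). Slc25a4 alone made up 64.6% of the mean family CPM. With Slc25a12 and Slc25a3 it made up 80.6%, and the 10 most abundant members made up 90.8%. Of the 42 members, 3 had a mean of at least 100 CPM, 14 lay between 10 and 100 CPM, 18 between 1 and 10 CPM and 7 under 1 CPM. A level over 3 times the olfactory receptor level was seen in all 8 muscle libraries for 26 members, in some for 8, and in none for 8. In single libraries 69.0% to 81.0% of members passed it, against 59.8% to 68.7% of protein-coding genes.

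**Figure D1:**
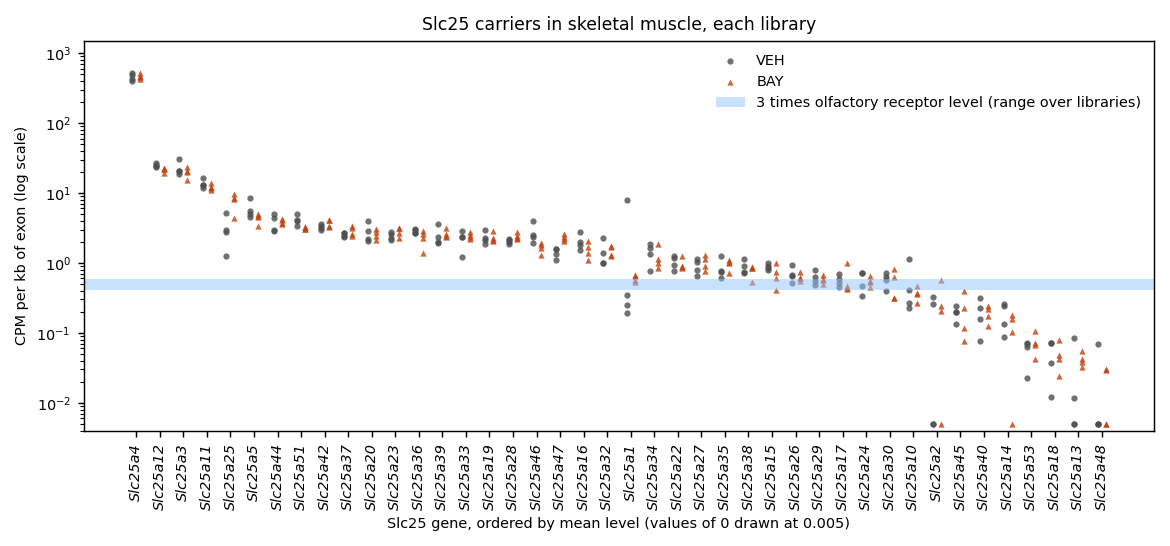
Level of each of the 42 Slc25 genes in skeletal muscle, as CPM per kb of exon on a log axis, with 1 point per VEH (grey circles) or BAY (orange triangles) library; the band marks 3 times the olfactory receptor level. Slc25a4 stands apart from all other carriers, and a single VEH library of Slc25a1 lies far above the other 7.

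Among the ATP-supplying carriers, Slc25a4 measured 1273, 1192, 1548 and 1422 CPM in VEH replicates 1 to 4 and 1249, 1385, 1346 and 1538 CPM in BAY replicates 1 to 4. The groups overlapped throughout, and its log2 fold change (BAY against VEH) was 0.03 with an SE of 0.18. Slc25a5, the translocase of proliferating and non-muscle cells, was far lower at 9.89, 8.92, 15.1 and 7.99 CPM in VEH and 8.21, 8.95, 8.13 and 6.01 CPM in BAY. The ratio of Slc25a4 to Slc25a5 CPM in the same library ranged from 103 to 178 in VEH and from 152 to 256 in BAY. Slc25a3, which imports phosphate for ATP synthesis, measured 141, 128, 211 and 141 CPM in VEH and 135, 141, 161 and 105 CPM in BAY.

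The malate-aspartate shuttle carriers followed. Slc25a12 (aralar), the calcium-regulated aspartate-glutamate exchanger of excitable tissues, measured 194, 211, 224 and 203 CPM in VEH and 183, 190, 183 and 159 CPM in BAY. Every BAY library of Slc25a12 lay below every VEH library, and the log2 fold change was -0.22 with an SE of 0.12 (limma P = 0.0803, adjusted P = 0.564; exact permutation P = 0.0286, the smallest that 4 against 4 allows). Slc25a11, the oxoglutarate-malate exchanger, measured 53.4, 53.7, 69.1 and 48.4 CPM in VEH and 48.3, 51.5, 57.5 and 46.3 CPM in BAY. Slc25a13 (citrin), the other aspartate-glutamate exchanger, was near the floor, with 0, 0, 8 and 1 reads in VEH and 4, 2, 3 and 3 reads in BAY.

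BAY against VEH in skeletal muscle was tested with limma over all genes of the table. A P value under 0.05 was reached by 4 members, 2 of 42 higher (6.71% of all genes were) and 2 of 42 lower (3.07% of all genes were). These shares were near the background. After median centring 2 members were higher (5.71% of all genes) and 6 lower (5.91%), and after quantile normalization 2 were higher (5.91%) and 6 lower (6.14%). The lower members added under both were Slc25a5, Slc25a12, Slc25a16 and Slc25a36. Of the 42 members 21 were higher and 21 lower with BAY, against 55.2% higher among all genes. The median log2 fold change was 0.01 over the members and 0.06 over all genes. The smallest adjusted P value among the members was 0.275. BAY libraries lay wholly above VEH for 2 members (Slc25a28 and Slc25a47; 4.2% of all genes) and wholly below for 2 (Slc25a12 and Slc25a51; 1.53% of all genes).

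Slc25a25 was the only member that also passed a fold change of 2 (1.33% of all genes did so upward). It encodes a calcium-regulated ATP-Mg/phosphate carrier that sets the adenine nucleotide content of the matrix, and lies on chr2:32303547-32341482. VEH libraries measured 24.9, 27.3, 11.4 and 46.6 CPM, and BAY libraries 87.1, 39.5, 75.1 and 76.3 CPM. VEH replicate 3 was the lowest and BAY replicate 2 overlapped VEH replicate 4, while the other 3 BAY libraries were above all VEH libraries. Mean levels were 27.5 ± 14.5 and 69.5 ± 20.7 CPM (SD, n = 4 each). The log2 fold change was 1.44 with an SE of 0.34 (limma P = 0.00095, adjusted P = 0.275; exact permutation P = 0.0571). The adjusted P was 0.0285 with voom in limma on the recovered reads, and it ranged from 0.0229 to 0.651 over 17 alternatives. Without VEH replicate 3 the log2 fold change was 1.07 (limma adjusted P = 0.331). Of the other ATP-Mg/phosphate carriers, Slc25a23 had a log2 fold change of 0.19 with an SE of 0.16 (limma adjusted P = 0.699). Slc25a24, whose levels were 1.19 to 2.59 CPM, had one of 0.03 with an SE of 0.36 (limma adjusted P = 0.998).

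RefSeq (GRCm38.p6) listed 3 start regions for Slc25a25, and one of them held a full cAMP response element, a motif bound by CREB-family factors. It is shown because this carrier alone passed both thresholds. The region is chr2:32424017-32424316 on the minus strand, with the element in capitals.
Slc25a25: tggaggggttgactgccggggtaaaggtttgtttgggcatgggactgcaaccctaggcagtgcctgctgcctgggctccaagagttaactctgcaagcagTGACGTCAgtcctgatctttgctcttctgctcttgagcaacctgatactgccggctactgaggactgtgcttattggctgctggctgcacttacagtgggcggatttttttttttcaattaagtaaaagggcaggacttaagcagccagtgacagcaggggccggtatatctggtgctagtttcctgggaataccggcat
The element was spelled TGACGTCA, which reads the same on both strands, and was present in 1.79% of 32851 RefSeq promoter regions of this length and in 2 of the 46 regions of members (4.35%). The other was that of Slc25a36, whose log2 fold change in muscle was -0.36 (SE 0.19, limma adjusted P = 0.557). The core of the dioxin response element to which AhR binds (GCGTG, or CACGC on the other strand) was in none of the 3 Slc25a25 regions, against 32.4% of all regions. Entries were found for 36 of the 47 members, 46 regions in all, and 54.3% of these held the core. Both motifs were chosen after the values were seen. They can share letters at their ends, but the Slc25a25 regions held no core for the element to overlap. A match is a description of letters only.

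Slc25a47, a carrier best known from liver, lies on chr12:108801972-108822741. It measured 4.19, 3.49, 4.97 and 4.89 CPM in VEH and 6.47, 8.15, 6.84 and 7.29 CPM in BAY. All BAY libraries were above all VEH libraries, with a log2 fold change of 0.72 and an SE of 0.20 (limma P = 0.00306, adjusted P = 0.305; exact permutation P = 0.0286). The change was 1.64-fold on mean CPM and so fell short of 2-fold. Its promoter region, chr12:108850879-108851178 on the plus strand in RefSeq GRCm38.p6, held neither motif and is shown for comparison with that of Slc25a25, without capitals.
Slc25a47: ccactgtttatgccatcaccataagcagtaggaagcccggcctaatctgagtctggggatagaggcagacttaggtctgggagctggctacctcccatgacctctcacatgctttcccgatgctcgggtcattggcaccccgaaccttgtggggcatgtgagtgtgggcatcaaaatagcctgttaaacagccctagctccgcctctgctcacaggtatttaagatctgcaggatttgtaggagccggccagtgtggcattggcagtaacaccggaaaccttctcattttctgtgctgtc
Slc25a28 (mitoferrin 2), an iron importer, was the other member without overlap in the upward direction, at 14.9, 13.0, 13.6 and 15.03 CPM in VEH and 15.7, 19.1, 16.6 and 15.3 CPM in BAY. Its log2 fold change was 0.24 with an SE of 0.14 (limma P = 0.107; exact permutation P = 0.0286, the smallest that 4 against 4 allows). Slc25a28 was picked for its lack of overlap, and any gene without overlap has this permutation P. The permutation P of Slc25a28 was therefore fixed by that choice, and nothing is read from it.

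The members that fell were Slc25a51 and Slc25a46. Slc25a51, the NAD+ importer of mitochondria, lies on chr4:45395923-45409528 and measured 27.2, 26.8, 33.7 and 22.7 CPM in VEH against 20.8, 21.7, 21.9 and 20.3 CPM in BAY. All BAY libraries were below all VEH libraries, and the log2 fold change was -0.37 with an SE of 0.14 (limma P = 0.0187, adjusted P = 0.414; exact permutation P = 0.0286). Slc25a46, an outer-membrane protein with a part in mitochondrial fission and lipid handling, measured 16.1, 16.9, 26.8 and 12.8 CPM in VEH and 11.1, 13.1, 12.2 and 8.83 CPM in BAY. VEH replicate 4 lay within the BAY range, and the log2 fold change was -0.64 with an SE of 0.21 (limma P = 0.00919, adjusted P = 0.358; exact permutation P = 0.0571).

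**Figure D2:**
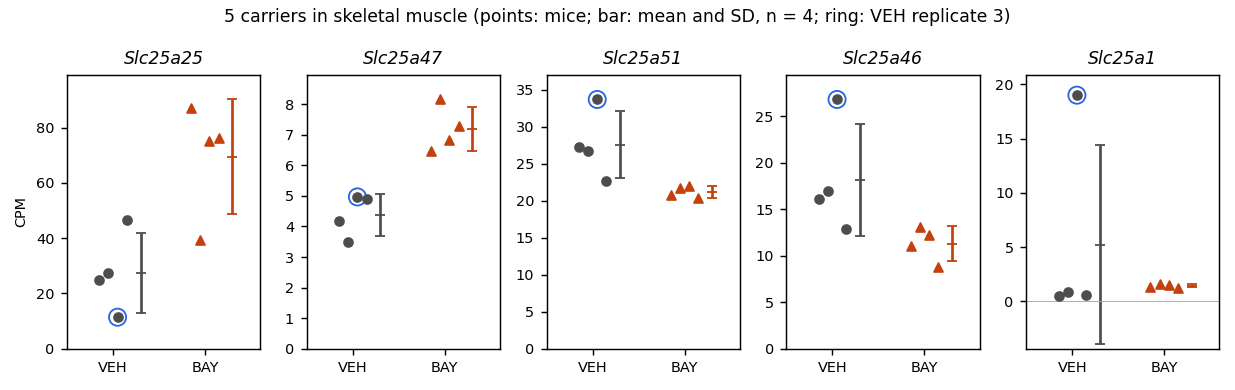
CPM of Slc25a25, Slc25a47, Slc25a51, Slc25a46 and Slc25a1 in skeletal muscle; points are mice, bars are mean ± SD (n = 4), and the ring marks VEH replicate 3. The ringed library is the lowest VEH value of Slc25a25 and the highest VEH value of the other 4 genes, and it alone reaches 19.0 CPM of Slc25a1.

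VEH replicate 3 of skeletal muscle, whose deposited column carries a word for replacement, stood apart from the other 7 libraries. It was the highest of the 8 libraries for 25 of the 42 members (59.5%), against 26.9% of all genes. This was not particular to the family. The 5 porin and pyruvate carrier genes summed to 585 CPM there against 372 to 491 CPM elsewhere, and 16 mitochondrial import genes to 227 against 157 to 191 CPM. VEH replicate 3 was also the highest for 7 of the 8 adipocyte markers: Adipoq was at 16.4 CPM against 0 to 1.05 CPM elsewhere, and Plin1 at 37.9 CPM against 0.275 to 2.33 CPM. Ucp1, the uncoupling carrier of brown fat and a relative of the Slc25 members, was at 7.99 CPM there and at 0 to 0.129 CPM in the others. Of the other brown adipocyte markers, Cidea was at 4.97 CPM against at most 0.279 CPM and Elovl3 at 0.54 against at most 0.326 CPM. Ppargc1a was at 44.4 against at most 43.1 CPM, while Dio2 and Cox7a1 lay within the range of the others. Single genes of other lists stood apart there too. The collagen genes Col1a1 and Col1a2 were at 86.4 and 61.5 CPM against at most 25.1 CPM for either elsewhere. They carried most of an osteoblast and osteocyte sum of 161 CPM (33.8 to 56.8 CPM elsewhere). Dmp1 at 0.648 against at most 0.275 CPM and Phex at 0.54 against at most 0.516 CPM were also highest there. Runx2 was lowest there, and Alpl and Spp1 lay within the range of the others. Of the 4 osteoclast markers in the table, Acp5 was at 5.18 CPM against at most 0.233 CPM, Ctsk at 1.08 against at most 0.837 CPM and Mmp9 at 0.864 against at most 0.815 CPM, and Calcr was at 0 there and in 5 others. Myh2, a fast fibre myosin, was at 5241 CPM against 808 to 1983 CPM. In bulk tissue, fewer cells of a type and less RNA per cell cannot be told apart.

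Slc25a1, the citrate exporter that supplies carbon for fatty acid synthesis, was among the members that were high in this library. VEH replicates 1, 2 and 4 measured 0.466, 0.837 and 0.596 CPM, VEH replicate 3 measured 19.0 CPM, and BAY measured 1.38, 1.63, 1.55 and 1.26 CPM. With all libraries the log2 fold change was -0.00 with an SE of 0.91. Without VEH replicate 3 it was 1.23 with an SE of 0.49 (limma adjusted P = 0.456), and it then rested on 4, 6 and 5 VEH reads against 10, 10, 12 and 9 BAY reads. Slc25a10, the dicarboxylate carrier, was likewise at 6.48 CPM in that library and at 1.28 to 2.66 CPM in the other 7. The 7 adipocyte markers (all of the list but Car3, which was lowest there), Col1a1, Col1a2, Acp5 and Myh2 were highest in the same library, and their part in these levels was not tested.

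Without VEH replicate 3, 4 members were higher at P under 0.05 (8.15% of all genes) and 2 lower (1.65% of all genes). The higher members were Slc25a25, Slc25a47, Slc25a1 and Slc25a13, and the lower ones Slc25a46 (log2 fold change -0.44, limma adjusted P = 0.438) and Slc25a51 (-0.27, limma adjusted P = 0.491). The fitted change of Slc25a13 rests on 0, 0 and 1 VEH reads and on the offset, so no fold is given. The median log2 fold change became 0.13 over the members and 0.12 over all genes. Slc25a51 did not reach a P value under 0.05 with voom on the recovered reads of the same 7 libraries.

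No other member had a P value under 0.05 in muscle with all libraries. Of 10 cofactor and nucleotide carriers 5 were higher and 5 lower (median log2 fold change -0.00), and Slc25a51 was the 1 that passed. Of 9 members grouped as carnitine, amino acid and ornithine carriers 4 were higher and 5 lower, with a median of -0.05. Slc25a47, whose substrate was not examined here, was the 1 that passed. Of the 5 aspartate, glutamate and oxoglutarate carriers 2 were higher and 3 lower, and both citrate and dicarboxylate carriers were lower with all libraries. Of 3 uncoupling protein-like carriers 1 was higher and 2 were lower. Of the iron and glutathione carriers, all 4 had a log2 fold change above 0, from 0.10 to 0.24. Slc25a20, which exchanges carnitine for acylcarnitine in fatty acid oxidation, was at 19.5 ± 6.14 CPM in VEH and 18.0 ± 2.79 CPM in BAY. Slc25a42, which imports coenzyme A, was at 20.4 ± 1.85 and 23.5 ± 2.71 CPM (SD, n = 4 each). Slc25a44, a branched-chain amino acid carrier, measured 14.1, 21.2, 23.97 and 13.8 CPM in VEH and 19.8, 17.6, 20.8 and 18.2 CPM in BAY, with all BAY libraries inside the VEH range. Of the proteins that work beside the carriers, none of 16 import genes and none of 5 relatives (the uncoupling proteins and Mtch1 and Mtch2) had a P value under 0.05. Of 5 porin and pyruvate carrier genes only Vdac3, an outer-membrane channel, did, at 60.8, 55.1, 76.5 and 55.7 CPM in VEH and 49.2, 48.8, 53.0 and 39.9 CPM in BAY (log2 fold change -0.37, limma adjusted P = 0.409).

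Cortical bone gave a different profile of the family. The sum over 47 members ranged from 522 to 1509 CPM, at 885 ± 395 CPM in VEH and 1307 ± 273 CPM in BAY (SD, n = 4 each). Slc25a4 made up 20.2% of the mean family CPM, and the 10 most abundant members made up 54.2%. Its share was 50.2% in VEH replicate 1, 42.1% in BAY replicate 1 and 48.2% in BAY replicate 2, but 0.768% to 7.27% in the other 5 libraries, so the pooled share rests on those 3. The highest by mean CPM per kb were Slc25a4, Slc25a5, Slc25a3, Slc25a37 and Slc25a35. That order rests on means over libraries that differ widely. The median over the 8 bone libraries was 63.3 CPM for Slc25a3, 55.8 CPM for Slc25a4 and 13.6 CPM for Slc25a5. No member was over 3 times the olfactory receptor level in all 8 bone libraries (0.181% of protein-coding genes were). In VEH replicate 1, the deepest library, 28 members passed that level, as did 53.4% of protein-coding genes. In the others between 0 and 5 did, against 0.42% to 16.1% of protein-coding genes, and in VEH replicate 2 and BAY replicate 4 none did. In total, 28 members passed in at least 1 library and 19 in none.

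**Figure D3:**
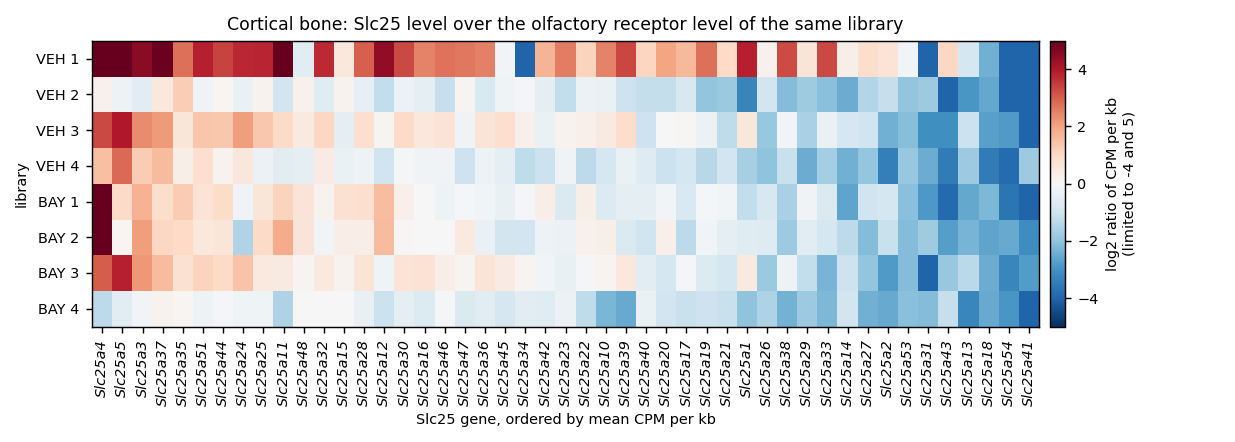
Level of each of the 47 Slc25 genes over the olfactory receptor level of the same cortical bone library, as a log2 ratio of CPM per kb (red above, blue below, colors limited at both ends). VEH replicate 1 is red for most genes, while no gene of VEH replicate 2 or BAY replicate 4 is over 3 times the background.

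Slc25a4 in bone measured 262, 25.8, 41.1 and 48.0 CPM in VEH and 635, 682, 63.7 and 10.7 CPM in BAY. The muscle-fibre markers of the same libraries summed to 26906, 1736, 368 and 529 CPM in VEH and to 80961, 89008, 3879 and 1054 CPM in BAY. The 3 libraries with the highest Slc25a4 were thus the 3 with the highest fibre-marker sums. Its log2 fold change was 1.12 with an SE of 1.19 (limma P = 0.366; exact permutation P = 0.514). Slc25a12 was also highest in BAY replicates 1 and 2, at 74.7 and 66.6 CPM against 12.8 to 35.5 CPM in the other 6 libraries. The part of muscle fibres in either level was not tested.

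Slc25a5 followed another order. It measured 16.1, 11.0, 39.7 and 73.5 CPM in VEH and 10.7, 4.96, 69.3 and 10.7 CPM in BAY, and the osteoblast and osteocyte markers summed to 7522, 1596, 31663 and 23228 CPM in VEH and to 2065, 1796, 23453 and 2450 CPM in BAY. The same 3 libraries, VEH replicates 3 and 4 and BAY replicate 3, were highest for both. Osteoclast markers were also highest in these libraries, at 739 to 1012 CPM against 79.0 to 236 CPM in the others, and so were neutrophil markers, at 513 to 1974 CPM against 54.5 to 204 CPM. The part of any of these cells in the Slc25a5 level was not tested. The log2 fold change of Slc25a5 was -0.93 with an SE of 0.90 (limma P = 0.319; exact permutation P = 0.343). The ratio of Slc25a4 to Slc25a5 ranged from 0.653 in VEH replicate 4 to 137 in BAY replicate 2.

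**Figure D4:**
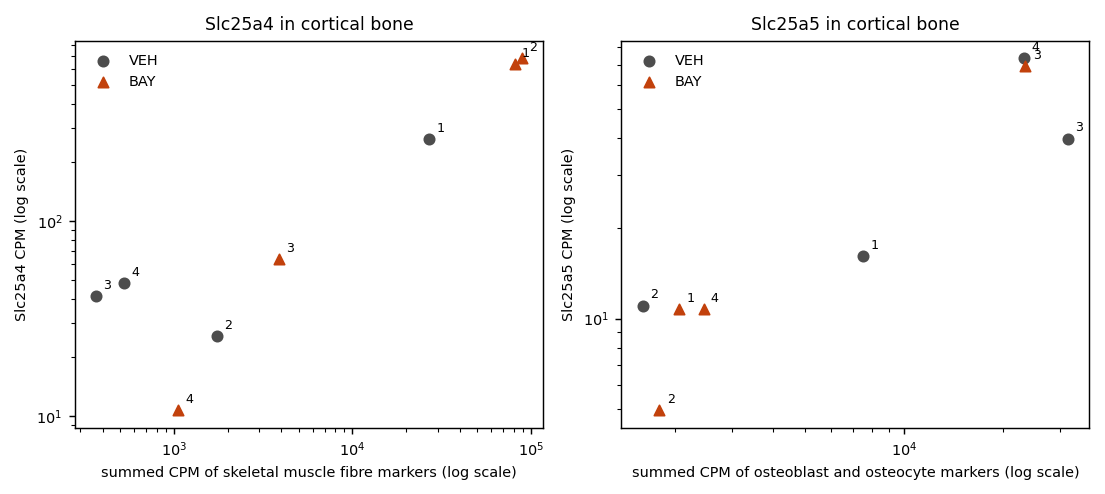
Slc25a4 CPM against the summed CPM of muscle-fibre markers (left) and Slc25a5 CPM against that of osteoblast and osteocyte markers (right) in the 8 cortical bone libraries, all axes on a log scale; grey circles are VEH, orange triangles BAY, and numbers are replicates. The libraries richest in fibre markers, BAY replicates 1 and 2, hold the most Slc25a4, and those with 23228 CPM or more of bone markers hold the most Slc25a5.

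The other leading members of bone followed neither order. Slc25a3 measured 20.6, 35.0, 48.5 and 93.2 CPM in VEH and 70.6, 76.5, 80.5 and 55.9 CPM in BAY. Slc25a37 (mitoferrin 1), the iron importer of erythroid cells, measured 23.8, 65.4, 36.6 and 105 CPM in VEH and 34.3, 32.5, 48.4 and 61.3 CPM in BAY. Slc25a35, whose substrate is not well defined, measured 4.22, 82.4, 9.92 and 32.7 CPM in VEH and 34.9, 24.8, 21.4 and 45.1 CPM in BAY. It was highest in VEH replicate 2, where no member passed 3 times the background.

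With limma over all genes of bone, no member had a P value under 0.05 in either direction, against 0.64% of all genes. With voom on the recovered reads, 2 members did, Slc25a15 and Slc25a48, against 3.68% of all genes. Without VEH replicate 2, Slc25a15 and Slc25a29 did, against 2.87% of all genes. Of the 47 members 41 were higher and 6 lower with BAY, and 80.9% of all genes were higher too. The split depended on the scaling and on 1 library. Without VEH replicate 1, 26 members were higher and 21 lower, and 17020 of all 38933 genes were higher. After median centring 18 members were higher and 29 lower (19276 of all genes higher). After quantile normalization 28 were higher and 19 lower (19992 of all genes higher). With all libraries Slc25a5, Slc25a24, Slc25a33, Slc25a37, Slc25a38 and Slc25a39 were the 6 lower members. None of the 16 import genes, 5 relatives and 5 porin and pyruvate carrier genes had a P value under 0.05 in bone. The median log2 fold change was 0.71 over the members and 0.84 over all genes, and it was 0.14 and -0.09 without VEH replicate 1. That library had the lowest background and was the lowest of the 8 for 38 of the 47 members. Low values there were not confined to the members: it listed 13185 of 38933 genes at 0, against 1393 to 3371 in the other libraries. In simulated data with the spread of these bone libraries, 39% of genes changed by 2 on the log2 scale reached a P value under 0.05, against 100% in muscle. With voom on simulated bone reads the share was 96%. Those reads were drawn with a fixed scatter around a mean shared by all libraries, not with the spread of the bone libraries. The voom share therefore does not describe these libraries and cannot be set against that of limma. For a change of 1 on the log2 scale, the 2-fold threshold, the shares in bone were 13% with limma and 77% with voom, under the same settings.

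The members found only in the bone table were Slc25a21 and 4 with few reads. Slc25a31, the translocase of the testis, had 0, 5, 1 and 3 reads in VEH and 2, 4, 0 and 4 reads in BAY. Slc25a41, a short ATP-Mg/phosphate carrier, had 0, 0, 0 and 3 reads in VEH and 0, 1, 1 and 0 reads in BAY, and Slc25a54 had 0, 0, 1 and 1 reads in VEH and 1, 2, 1 and 2 reads in BAY. Slc25a43, with more reads in BAY replicate 4 than elsewhere, had 8, 1, 2 and 3 reads in VEH and 2, 4, 6 and 16 reads in BAY. Slc25a21, the oxoadipate carrier of lysine breakdown, measured 1.29, 10.1, 2.83 and 14.6 CPM in VEH and 13.9, 9.1, 7.13 and 20.4 CPM in BAY, and its 8 to 31 reads were above the floor in every library. None of the 5 was over 3 times the background in any bone library.

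Levels in muscle and bone were set side by side with no test, because each table was normalized on its own. Among the 42 members in both tables, 4 were at least 2-fold higher in muscle with no overlap between the 8 muscle and 8 bone libraries, and 4.41% of the 20526 shared genes were. In the other direction 5 members were, and 22.9% of the shared genes. The members higher in muscle were Slc25a4 (1369 ± 130 CPM in muscle and 221 ± 282 CPM in bone; SD, n = 8 libraries each, both treatments), Slc25a12 (193 and 35.4 CPM), Slc25a11 (53.5 and 19.9 CPM) and Slc25a3 (145 and 60.1 CPM). These carry adenine nucleotides, phosphate and the malate-aspartate shuttle. The ratio of means was 6.19-fold for Slc25a4, 5.45-fold for Slc25a12, 2.69-fold for Slc25a11 and 2.42-fold for Slc25a3. The bone mean of Slc25a4 rests on the libraries with the highest muscle-fibre marker sums, and its bone median was 55.8 CPM.

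The members higher in bone were Slc25a48, Slc25a53, Slc25a24, Slc25a30 and Slc25a37. Slc25a48, linked to choline transport, was at 0.432 to 43.0 CPM in bone and at 0 to 0.324 CPM in muscle. Slc25a53 was at 1.87 to 33.3 CPM in bone and 0.349 to 1.65 CPM in muscle, Slc25a24 at 3.31 to 30.6 and 1.19 to 2.59 CPM, and Slc25a30, an uncoupling protein-like carrier, at 6.33 to 32.2 and 1.54 to 3.91 CPM. Slc25a37 was at 23.8 to 105 CPM in bone and 14.3 to 20.2 CPM in muscle. In bone, Slc25a37 was over 3 times the background in 4 libraries, Slc25a24 in 2, Slc25a30 in 1, and Slc25a48 and Slc25a53 in 0. The median log2 ratio of muscle to bone over the 11158 coding genes whose mean reached 1 CPM in muscle and in bone was -1.11. Relative to this shift 6 members were higher in muscle (12.2% of the shared genes were), adding Slc25a33 and Slc25a42, and none was higher in bone (10.1% of the shared genes were).

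Subtracting the olfactory receptor background of each library, scaled to exon length, from both tissues changed the counts. No member was then higher in bone (2.96% of the genes were), and 14 were higher in muscle (19.6% of the genes). With the subtraction made in bone only, 0 were higher in bone (2.24% of the genes) and 21 in muscle (26.6% of the genes). That count of 21 includes Slc25a18 and Slc25a53, which were under the background in muscle too, at 0.0482 and 0.0641 CPM per kb, so nothing is read from it. Slc25a4, Slc25a12, Slc25a11 and Slc25a3 were higher in muscle before and after both subtractions. With the uncorrected levels but without VEH replicate 1 of bone, the library of lowest background, 16 members were higher in bone, against 52.4% of the shared genes. Without VEH replicate 3 of muscle, 10 were, against 24.7% of the shared genes. The 4 members higher in muscle were the same genes in both cases.

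**Figure D5:**
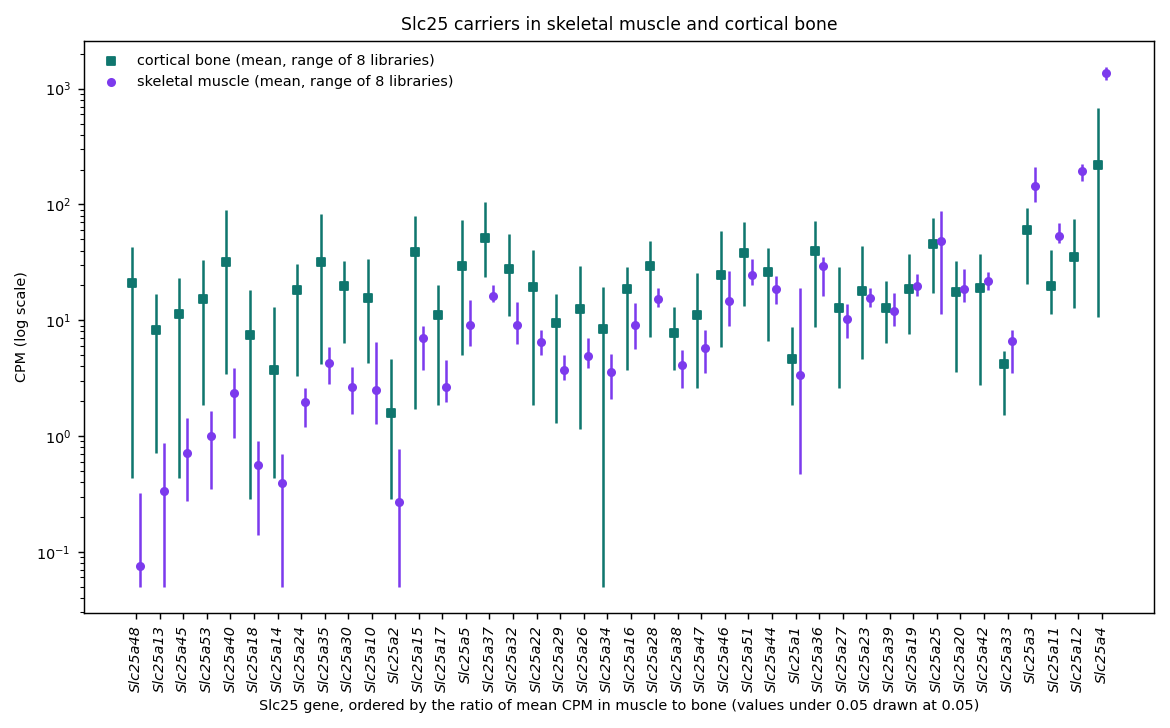
Mean CPM (symbols) and range over 8 libraries (lines) of the 42 Slc25 genes present in both tables, on a log axis, in cortical bone (green squares) and skeletal muscle (purple circles), ordered by their ratio. The ranges of Slc25a3, Slc25a11, Slc25a12 and Slc25a4 at the right do not overlap between the tissues.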

How the data were processed

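Bulk RNA-seq of 16 mouse libraries was used, 8 per tissue. Reads were trimmed by the authors, aligned to mm39 with STAR (version 2.7.8a, per the submitters' processing notes) and assigned to Ensembl genes by Partek's E/M algorithm. They deposited log2 values of CPM plus an offset, which the lowest values put at 0.0001 in bone and 0.0004 in muscle. Log2 and offset were undone for levels. Reads were recovered from the step between low values: up to 50 reads, 81.3% to 88.5% of values were whole to within 0.02. Exon lengths and coordinates came from GENCODE M39, matching 99.1% of genes in bone and 99.4% in muscle. The E/M algorithm can split reads between similar or overlapping genes, and the reads of Slc25a25 were not whole. Neither were those of other members in some muscle libraries, among them Slc25a5, Slc25a35, Slc25a36, Slc25a37 and Slc25a46. How reads were split between Slc25a4 and Slc25a5 was not tested. The kit was stranded, but strand use in counting is not given in the sources used here.

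BAY and VEH were compared per tissue with limma (version 3.58.1, R version 4.3.3; lmFit, eBayes with a trend, no filter, no covariate) on the deposited log2 values, two-sided, with Benjamini-Hochberg adjustment over the table. The authors' methods name limma-voom, run here on recovered reads as an alternative. By P under 0.05 and at least 2-fold, this alternative called 1433 genes (847 coding) in bone and 700 (327 coding) in muscle. The paper reports the same counts in bone and nearly the same in muscle. The main fit called 249 genes in bone and 510 in muscle, so the alternative is closer to the paper's method. Single members were also compared by exact permutation of the 8 libraries (70 splits). The fits were tested on simulated data. A member counted as above background where its CPM per kb was over 3 times that of the Olfr genes. Tissues were compared by means and overlap. Other steps used Python (version 3.11.15).

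Values by library, or their range over the 8 libraries of a tissue, are given for the leading members by CPM per kb (8 in muscle, 5 in bone), those with P under 0.05, those with the largest tissue ratios without overlap (up to 5 per direction), and those in 1 table. Slc25a1, Slc25a10, Slc25a13, Slc25a28 and the means of Slc25a20, Slc25a23 and Slc25a42 were added after their values were seen. The members and gene lists were chosen with earlier results of these data known. Alternatives are in the closing section. Within a tissue, same-numbered BAY and VEH libraries come from different mice. Whether bone and muscle came from the same mice is not given in the sources used here.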

Additional observations from a re-analysis of the deposited data

Results flagged for a closer look

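Of 106 groups of 4 libraries examined among the members named above and the family sums, 11 held a library that stood apart by Dixon's test of the gap to the next library, where chance gives about 1 in 20. Some of these members were named after their values were seen, so the count is not set against that share. In skeletal muscle all 4 were VEH replicate 3: Slc25a1 at 19.0 CPM against 0.466 to 0.837 CPM, Slc25a3 at 211 CPM against 128 to 141 CPM, Slc25a13 at 0.864 CPM against 0 to 0.119 CPM, and Slc25a48 at 0.324 CPM, its 3 reads against 0 in the other VEH libraries. In cortical bone, BAY replicate 4, the shallowest library, stood out for Slc25a46 (59.1 CPM against 17.5 to 22.4), Slc25a53 (33.3 CPM against 9.1 to 11.2), Slc25a23 (44.1 CPM against 11.2 to 12.8) and Slc25a43 (17.2 CPM against 0.894 to 3.06). Slc25a4 stood out in VEH replicate 1 at 262 CPM against 25.8 to 48.0 CPM, and Slc25a5 in BAY replicate 3 at 69.3 CPM against 4.96 to 10.7 CPM. Slc25a41 stood out in VEH replicate 4 at 2.18 CPM, its 3 reads against 0 in the other VEH libraries.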

How the results depend on the processing

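In skeletal muscle, 4 members had P under 0.05, 4 to 6 with a library left out, and 8 with median centring and 8 with quantile normalization, where Slc25a12 (-0.27 and -0.29), Slc25a5 (-0.44 and -0.44), Slc25a16 and Slc25a36 joined them, all lower. Those settings gave 2 higher and 6 lower members, and 1242 and 1290 lower genes in all against 646. The 1 member past 2-fold (510 of all genes) became 1 to 3 with a library left out (3 without VEH replicate 3, 496 of all genes) and 3 with voom without VEH replicate 3 (646 of all genes), an alternative added after seeing the data. In cortical bone the count of 0 became 2 with voom and 0 to 2 with a library left out, under both call rules. It was 1 with voom without VEH replicate 1 (also added), where Slc25a4 rose by 2.08 on the log2 scale (limma adjusted P = 0.552). In limma without that library, 9 of 12 muscle-fibre markers were higher at P under 0.05, with a median log2 fold change of 4.80. Without BAY replicate 4, Slc25a4 had 2.32 (limma adjusted P = 0.999), and without VEH replicate 2, Slc25a15 and Slc25a29 passed (1116 of all genes). The bone median ranged from -0.14 with median centring to 1.02 with voom, and from 0.14 to 1.02 with a library left out. The muscle median ranged from -0.08 without VEH replicate 1 to 0.13 without VEH replicate 3. Slc25a1 in muscle turned from -0.00 to 1.23 without VEH replicate 3, to 1.18 with voom in the same libraries, and to 0.02 and 0.06 without BAY replicate 1 or 4. It ranged from -0.55 to 1.23 with a library left out. Slc25a25, Slc25a47 and Slc25a46 kept their direction and a P value under 0.05 under all 17 alternatives, and Slc25a51 under 16 (not with voom without VEH replicate 3, -0.26).

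Members higher in muscle than bone numbered 4, 2 at 4-fold (379 of 20526 genes), 3 without mt- genes (955 genes, Slc25a11 lost), 6 after centring on the median ratio, 21 with the bone background removed and 14 with it removed in both tissues (both added), and 4 with any library left out. Those higher in bone numbered 5, 0 after centring on the median ratio, 8 without mt- genes (5818 of 20526 genes), 0 with the background removed in bone or in both tissues, and 5 to 16 with a library left out. They numbered 10 without VEH replicate 3 of muscle. The cause of these changes was not tested.

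Replicate block: within a tissue, same-numbered BAY and VEH libraries come from different mice and their deviations did not correlate throughout (-0.09 to 0.01 in muscle, -0.11 to 0.19 in bone). With the replicate block, 4 members had P under 0.05 (1778 of all genes) and 1 passed 2-fold (489) in muscle, and 0 and 0 did in bone (305 of all genes). Depth in bone, where 3 reads reached 3.22 CPM, limits the low members there.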
